A study of Mus musculus with 12 samples.

Results

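Chemokine receptors are the cell-surface proteins through which myeloid cells sense chemokine gradients and leave the marrow, enter inflamed tissue or reach lymph nodes. The typical members signal through an inhibitory G protein to the actin cytoskeleton and are then silenced by receptor kinases and arrestins. Neutrophil-like cells rely mainly on CXCR2 to move toward CXC chemokines and on CXCR4 to stay in the marrow, whereas inflammatory monocytes leave the marrow through CCR2.

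The RNA of 8 such receptors was followed in myeloid-derived suppressor cells (MDSCs): Ccr1, Ccr2, Ccr3, Ccr7, Cxcr2, Cxcr4, Cx3cr1 and Ccrl2. They were chosen by symbol, each matched 1 entry of the 35303 in the count table, and all 8 were among the 17676 symbols with enough counts to be tested. MDSCs are immunosuppressive myeloid cells, and these were grown with IL-6 and GM-CSF from the bone marrow of young wild-type female C57BL/6 mice and purified for CD11b and Gr1, a gate that holds both neutrophil-like and monocyte-like cells. Bulk RNA-seq compared unmodified MDSCs (MDSC), MDSCs carrying blank polymer nanoparticles (NPs) clicked onto their surface (MDSC-NP-Blk), and MDSCs carrying the same kind of NP loaded with rapamycin (CITED), with 4 libraries in each group. All groups were kept with IL-6 before RNA was taken, and the methods do not state whether the unmodified cells were also fed the azido sugar to which the NPs bind. A tissue label names the CNS, although the methods describe cultured marrow cells.

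The libraries held 20604809 to 37855478 counts. Of 8 MDSC markers, 7 had a mean normalized count over 50 in each group. Among them, Itgam, which encodes CD11b, averaged 51829 normalized counts in MDSC, Ly6c2 25635 and Ly6g 3924. Against MDSC, 4 of the 8 rose and 2 fell in CITED, and 7 rose and 0 fell with blank NPs. In CITED against MDSC-NP-Blk, 1 rose and 5 fell. Their summed level was 24625 to 28094.5 CPM in MDSC, 33761 to 35892 with blank NPs and 26131 to 29977 in CITED. Summed T cell markers stayed at or below 3.38 CPM and summed NK cell markers at or below 0.458 CPM in every library, and of 5 NK cell markers, Ncr1 and Klre1 had too few counts to be tested and 1 or 2 of the other 3 had no count in a given group. Markers of other lineages were detected. Summed B cell markers ran from 10.98 to 14.96 CPM in MDSC, 7.12 to 10.2 with blank NPs and 2.90 to 4.07 in CITED, and 5 of 5 fell in CITED against MDSC. Summed mast cell and basophil markers ran from 510 to 547 CPM in MDSC, 596 to 646 with blank NPs and 344 to 358 in CITED, where 1 of 8 rose and 5 fell against MDSC. The part of these lineages in the receptor levels was not tested. A normalized count is a count scaled to the mean library after TMM normalization. The TMM factors were 1.12 to 1.15 in MDSC but 0.921 to 0.947 in the groups with NPs, so that leaving them out shifted the median gene by −0.27 on the log2 scale in CITED against MDSC and by −0.26 in MDSC-NP-Blk against MDSC.

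In CITED against MDSC, 4 of the 8 receptors were up-regulated (Ccr1, Cxcr2, Ccrl2 and Ccr7) and 1 was down-regulated (Ccr2) at an adjusted p below 0.05 in edgeR's quasi-likelihood test, where 44.5% of all tested genes passed, 22.2% upward and 22.2% downward. In MDSC-NP-Blk against MDSC, 6 rose (Ccr1, Cxcr2, Ccrl2, Ccr7, Cxcr4 and Cx3cr1) and Ccr2 fell, against 38.6% of all genes, 19.9% upward and 18.6% downward. Between CITED and MDSC-NP-Blk, Ccr1 was higher and Ccr2 and Cxcr4 were lower in CITED, against 22% of all genes, 10.5% upward and 11.4% downward. Among the 10555 genes with a mean normalized count over 50, the shares that passed were 67.9%, 60.4% and 34.9%. Counts of marker genes and of other listed genes throughout the text are to be read against these same shares. The libraries of the compared groups did not overlap for 6 receptors in CITED against MDSC (42.5% of all genes), for 7 in MDSC-NP-Blk against MDSC (35.6%) and for 3 between the groups with NPs (21.2%). The first pair of comparisons use the same MDSC libraries. Adding a 2-fold minimum left Ccr1 and Ccr2 in CITED against MDSC, where 9.99% of all genes met both limits, and Cx3cr1 in MDSC-NP-Blk against MDSC, where 4.74% did. In CITED against MDSC-NP-Blk, 0 of the 8 met both limits in edgeR or DESeq2, where 2.65% of all genes did, while 4 had an unadjusted p below 0.05.

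**Figure D1:**
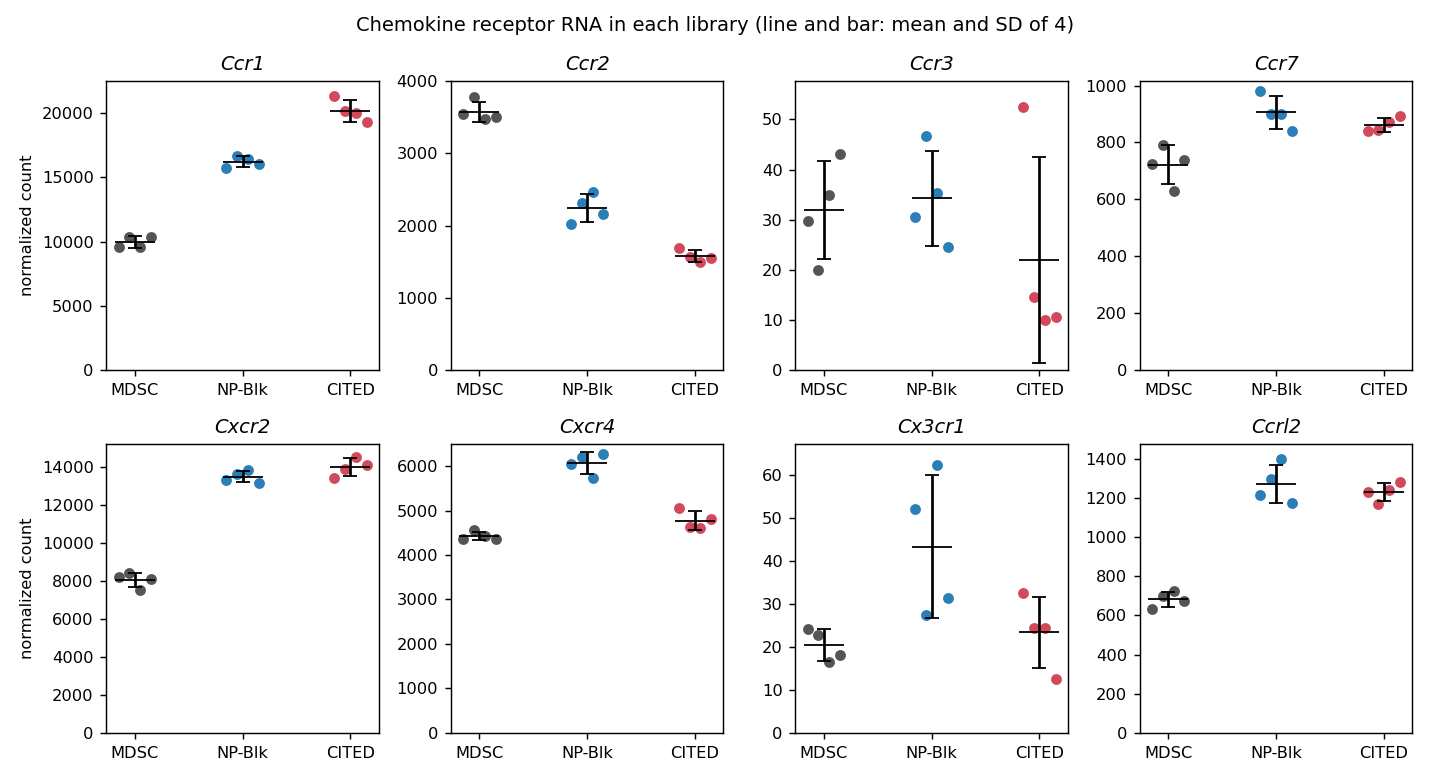
Normalized counts of the 8 receptors (y axes, each from 0) in the 4 libraries of MDSC, MDSC-NP-Blk (NP-Blk) and CITED (x axes), with points for libraries and lines with bars for the mean and SD. The groups step up without overlap for Ccr1 and down without overlap for Ccr2, whereas 1 CITED library stands above the other 3 for Ccr3.

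The DNA just before the start site is shown for 3 receptors: Ccr1, which stepped up, Ccr2, which stepped down, and Ccrl2, which rose alike with both NPs. Each run is 250 bases, 5′ to 3′ on the strand of the gene, from RefSeq on GRCm38.p6, ending at the base before the start. Capitals mark matches on either strand to GAGGAA, the core bound by the myeloid factor PU.1, or to the NF-kB consensus. The run of Ccr1 is chr9:123968693-123968942 (−), that of Ccr2 is chr9:124101933-124102182 (+), and that of Ccrl2, at its first listed start, is chr9:111057519-111057768 (−).
Ccr1: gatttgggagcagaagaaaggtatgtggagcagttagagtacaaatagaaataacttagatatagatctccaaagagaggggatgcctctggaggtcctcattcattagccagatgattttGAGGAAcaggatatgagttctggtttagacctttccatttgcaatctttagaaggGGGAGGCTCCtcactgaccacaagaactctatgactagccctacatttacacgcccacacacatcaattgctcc
Ccr2: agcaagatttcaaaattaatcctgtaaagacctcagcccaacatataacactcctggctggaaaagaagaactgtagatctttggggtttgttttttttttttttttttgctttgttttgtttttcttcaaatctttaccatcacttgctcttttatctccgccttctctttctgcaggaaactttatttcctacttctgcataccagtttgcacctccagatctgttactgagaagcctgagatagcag
Ccrl2: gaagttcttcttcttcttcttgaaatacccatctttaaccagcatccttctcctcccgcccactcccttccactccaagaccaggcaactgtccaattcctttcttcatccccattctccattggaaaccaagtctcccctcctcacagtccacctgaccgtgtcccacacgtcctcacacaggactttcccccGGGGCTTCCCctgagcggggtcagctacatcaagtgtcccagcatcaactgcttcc

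The NF-kB consensus was in the Ccr1 run, 74 bases before the start, and in the Ccrl2 run, 56 bases before it on both strands of the same 10 letters. The runs at the other listed starts of Ccrl2 held 0 matches to it, and which start these cells use was not tested. The NF-kB consensus was also in the run of Ccr3, which showed no detectable change, and in 7.25% of 32851 promoters of that length. The runs of Cxcr2, Cxcr4 and Cx3cr1, which all rose in MDSC-NP-Blk against MDSC, held no match to the NF-kB consensus. GAGGAA was in 23.3% of promoters and in those of Ccr1, Ccr3 and Cxcr2. No match to either was in the run printed for Ccr2, nor to TTGCNNAA (C/EBP), TGANTCA (AP-1) or TGACGTCA (CRE), which were in 9.56%, 6.75% and 1.55% of promoters. These matches describe letters only.

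Ccr1 encodes a receptor for inflammatory CC chemokines such as CCL3 and CCL5. In MDSC its 4 libraries held 9544, 10365, 9562 and 10379 normalized counts, in MDSC-NP-Blk 15688, 16644, 16398 and 16034, and in CITED 21289, 20160, 19969 and 19254. Every library with blank NPs was above every MDSC library, and every CITED library was above both. The means were 9962 ± 473, 16191 ± 418 and 20168 ± 843 (SD, n = 4). Ccr1 rose by 1.02 on the log2 scale in CITED against MDSC (SE 0.0462, adjusted p = 3.2e-19) and by 0.70 in MDSC-NP-Blk against MDSC (adjusted p = 1.4e-14). CITED was above MDSC-NP-Blk by 0.32 (adjusted p = 1.6e-06). The first value lay just past 2-fold, ranged from 0.99 to 1.04 when any 1 library was left out, and fell under 2-fold without MDSC replicate 1, MDSC replicate 3 or CITED replicate 1. Over all 21 alternatives run, which include other scalings and the length correction, it ranged from 0.74 to 1.04.

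Cxcr2 encodes the main receptor of neutrophils for CXC chemokines such as CXCL2. Its libraries held 8196, 8409, 7525 and 8102 normalized counts in MDSC, 13348, 13665, 13853 and 13186 in MDSC-NP-Blk, and 13428, 13889, 14545 and 14146 in CITED. Both groups with NPs lay above MDSC without overlap and overlapped each other. Cxcr2 rose by 0.80 in CITED against MDSC (adjusted p = 1.8e-16) and by 0.75 in MDSC-NP-Blk against MDSC (adjusted p = 2.9e-15). The difference of CITED from MDSC-NP-Blk was 0.05, with a 95% interval of −0.04 to 0.14 (adjusted p = 0.48). Of its 31-base words, 11% also occur in transcripts of other genes.

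Ccrl2 encodes an atypical receptor that binds chemerin and does not signal for migration. It averaged 683 ± 38.5 normalized counts in MDSC, 1271 ± 99.0 with blank NPs and 1229 ± 47.2 in CITED (SD, n = 4). The MDSC libraries, between 633 and 724, lay below all 8 libraries with NPs, between 1166 and 1399. It rose by 0.85 in CITED (adjusted p = 3.3e-12) and by 0.90 in MDSC-NP-Blk (adjusted p = 1.6e-12) against MDSC, and the groups with NPs differed by −0.05 (95% interval −0.19 to 0.09). Cxcr2 and Ccrl2 therefore rose with both kinds of NP, and a further change with rapamycin was not detectable in these libraries.

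Ccr7 encodes the receptor that guides mature dendritic cells and other leukocytes to lymph nodes. It averaged 722 ± 67.6 normalized counts in MDSC (630 to 793), 906 ± 57.4 in MDSC-NP-Blk (841 to 981) and 861 ± 24.7 in CITED (839 to 892). It rose by 0.26 in CITED (adjusted p = 0.0062) and by 0.33 in MDSC-NP-Blk (adjusted p = 6.6e-04), the smallest rises among the receptors that passed against MDSC. The CITED value lost its call without MDSC replicate 3 (0.20, adjusted p = 0.051). It was 0.11 (adjusted p = 0.24) after a correction for transcript length and −0.02 (adjusted p = 0.88) without TMM factors. The MDSC-NP-Blk value also lost its call without TMM factors (0.07, adjusted p = 0.51). Of 8 mature dendritic cell markers, 1 rose and 3 fell in CITED against MDSC, with summed levels of 614 to 647 CPM in MDSC, 475 to 510 with blank NPs and 539 to 584 in CITED. The part of these cells in the Ccr7 level was not tested.

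Ccr2, the receptor for CCL2 on inflammatory monocytes, was the only member of the 8 that fell in any comparison against MDSC. Its libraries held 3541, 3774, 3478 and 3501 normalized counts in MDSC, 2029, 2308, 2470 and 2164 in MDSC-NP-Blk, and 1689, 1568, 1497 and 1558 in CITED. The 3 groups did not overlap. Ccr2 fell by 1.18 on the log2 scale in CITED against MDSC, a 2.27-fold lower level (SE 0.0605, adjusted p = 7.6e-18). It fell by 0.67 in MDSC-NP-Blk against MDSC (adjusted p = 1.9e-11), and CITED lay below MDSC-NP-Blk by a further −0.51 (adjusted p = 4.1e-08). The 8 monocyte markers did not fall together: 4 rose and 3 fell in CITED against MDSC, and their summed level was 3247 to 3465 CPM in MDSC, 4599 to 4845 with blank NPs and 4165 to 4531 in CITED. Macrophage markers were lower beside Ccr2: of 7, 6 fell and 1 rose in CITED against MDSC (median −2.81), and 6 fell and 0 rose in MDSC-NP-Blk against MDSC (median −1.61). Mrc1, the mannose receptor, had the median value of −2.81 in CITED (adjusted p = 2.8e-20). Summed macrophage markers were 361 to 385 CPM in MDSC, 199 to 257 with blank NPs and 216 to 228 in CITED, and their part in the Ccr2 level was not tested. F13a1, a factor XIII subunit made by monocytes, went from 3022 to 490 normalized counts in CITED (−2.63, adjusted p = 5.9e-24). It was 1 of the 3 monocyte markers that fell, and the median of all 8 in CITED against MDSC was 0.27. Whether Ccr2 fell in each cell or in the number of cells that express it cannot be told apart in bulk RNA.

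Cxcr4 encodes the receptor for CXCL12 that holds myeloid cells in the marrow. The MDSC libraries held 4371, 4565, 4428 and 4358 normalized counts, the MDSC-NP-Blk libraries 6056, 6200, 5740 and 6275, and the CITED libraries 5052, 4625, 4604 and 4811. MDSC-NP-Blk was above both other groups without overlap. Cxcr4 rose by 0.45 in MDSC-NP-Blk against MDSC (adjusted p = 1.4e-09), and CITED was −0.35 below MDSC-NP-Blk (adjusted p = 8.9e-07). CITED differed from MDSC by 0.11 (unadjusted 95% interval 0.0086 to 0.21, adjusted p = 0.073), which was −0.17 without TMM factors (adjusted p = 0.0035), −0.07 after the length correction and past the threshold at 0.10 in DESeq2 (adjusted p = 0.045). The direction of that comparison therefore turned with the scaling, whereas the other 2 Cxcr4 comparisons kept theirs under each alternative run.

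**Figure D2:**
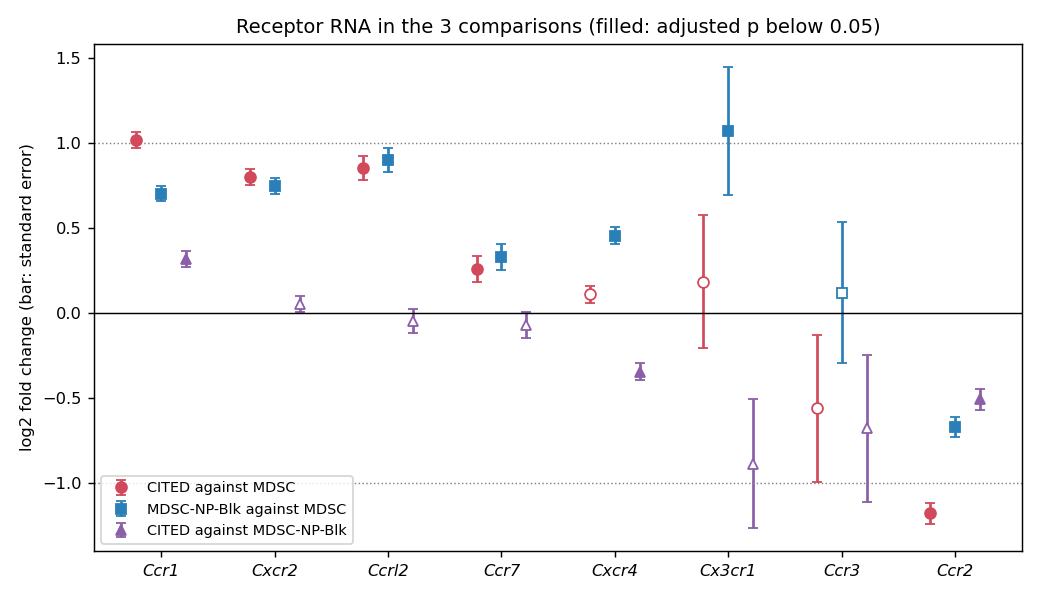
Log2 fold changes (y axis) of the 8 receptors (x axis) in the 3 comparisons, with standard errors as bars, filled symbols for an adjusted p below 0.05 and dotted lines at 2-fold. Ccr1 and Ccr2 reach 1.02 and −1.18 in CITED against MDSC, Cxcr2 and Ccrl2 lie near 0 between the groups with NPs, and Cxcr4 rises in MDSC-NP-Blk and lies lower in CITED.

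Cx3cr1, the fractalkine receptor of monocytes and microglia, was sparse, at 13 to 60 raw counts a library. It held 24.3, 22.8, 16.5 and 18.1 normalized counts in MDSC, 52.2, 27.5, 62.4 and 31.5 in MDSC-NP-Blk, and 32.5, 24.4, 24.4 and 12.5 in CITED. The MDSC-NP-Blk libraries were all above the MDSC libraries and varied widely among themselves. Cx3cr1 rose by 1.07 in MDSC-NP-Blk against MDSC (SE 0.376, adjusted p = 0.022). That call was lost without TMM factors (0.81, adjusted p = 0.080) and without MDSC replicate 3 (0.98, adjusted p = 0.059), MDSC replicate 4 (1.02, adjusted p = 0.051), MDSC-NP-Blk replicate 1 (0.97, adjusted p = 0.067) or MDSC-NP-Blk replicate 3 (0.84, adjusted p = 0.12). CITED was not detectably different from MDSC, at 0.18 (95% interval −0.61 to 0.98, adjusted p = 0.75).

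Ccr3, the eotaxin receptor of eosinophils, was also sparse. It held 29.8, 19.9, 34.9 and 43.2 normalized counts in MDSC, 30.5, 46.8, 35.3 and 24.5 in MDSC-NP-Blk, and 52.5, 14.6, 9.97 and 10.6 in CITED. CITED replicate 1 lay above every MDSC library while the other 3 CITED libraries lay below all of them. Ccr3 differed by −0.56 in CITED against MDSC (adjusted p = 0.31) and by −0.68 against MDSC-NP-Blk (adjusted p = 0.30). Without CITED replicate 1 these values were −1.44 (adjusted p = 0.0061) and −1.56 (adjusted p = 0.0077). Of 6 eosinophil markers, 4 fell and 1 rose in CITED against MDSC. Epx, the eosinophil peroxidase, was lower by −2.41 (adjusted p = 1.1e-23) and Prg2, the major basic protein, by −1.27 (adjusted p = 5.1e-21), whereas Siglecf, a surface lectin of eosinophils, rose by 0.30 (adjusted p = 0.037). Their summed level was 1332 to 1585 CPM in MDSC, 1053 to 1268 with blank NPs and 442 to 454 in CITED, replicate 1 included. The part of eosinophil-lineage RNA in the Ccr3 level was not tested.

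Per kilobase of the canonical transcript, Ccr1 was the most abundant of the 8 in MDSC at 3510 normalized counts, followed by Cxcr2 at 2645 and Cxcr4 at 2432, whose libraries overlapped. Ccr2 came next at 624, then Ccr7 at 363 and Ccrl2 at 276. Ccr3 at 9.77 and Cx3cr1 at 5.44 came last, with overlapping libraries. In CITED the order was Ccr1 at 7106, Cxcr2 at 4597, Cxcr4 at 2620, Ccrl2 at 497, Ccr7 at 434, Ccr2 at 275, Ccr3 at 6.70 and Cx3cr1 at 6.24, again with overlap in the last pair. In MDSC-NP-Blk Cxcr2 (4436) and Cxcr4 (3330) no longer overlapped, while Ccrl2 at 513, Ccr7 at 456 and Ccr2 at 392 overlapped with their neighbors.

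In the groups with NPs, the place of Ccr2 rested on transcript choice. In MDSC, Ccr2 came next after Cxcr4 with every transcript length used. GENCODE lists 4 Ccr2 transcripts with the same 1119 coding bases, of 2270 to 5728 bases. With the shortest, Ccr2 would stand at 1574 normalized counts per kilobase in MDSC, 988 with blank NPs and 695 in CITED, next after Cxcr4 in each group. This choice multiplies all groups alike and does not touch the differences of Ccr2 between groups.

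**Figure D3:**
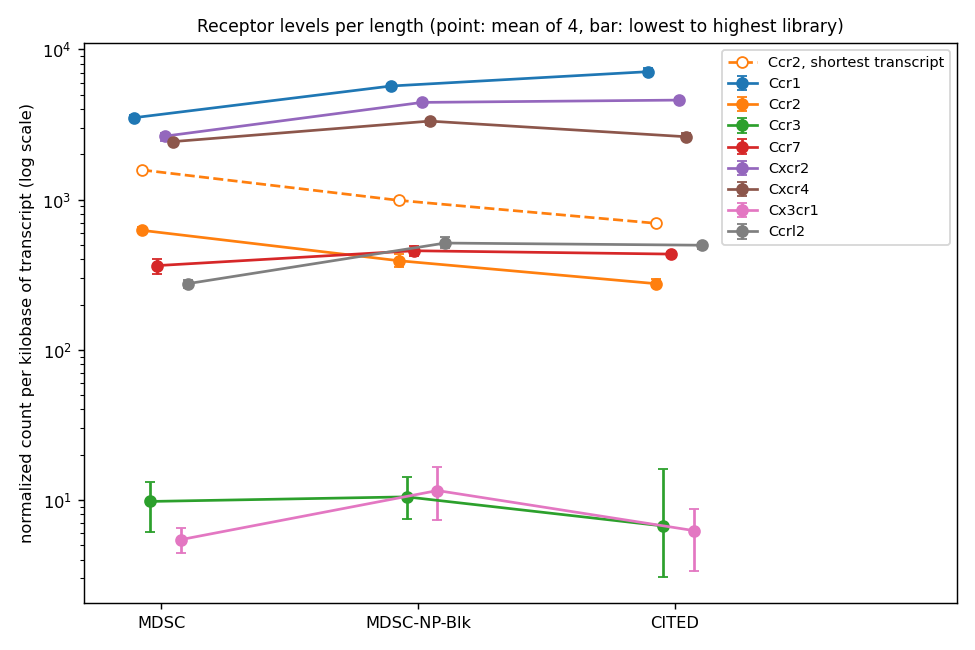
Normalized counts per kilobase of canonical transcript (y axis, log scale) of the 8 receptors in the 3 groups (x axis), with points for the mean of 4 libraries, bars from the lowest to the highest library, and a dashed line for Ccr2 over its shortest complete transcript. Ccr1, Cxcr2 and Cxcr4 average from 2432 to 7106, and Ccr3 and Cx3cr1 from 5.44 to 11.5.

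As shares of the summed per-kilobase level of the 8 receptors, Ccr1 took 35.6% ± 0.816 in MDSC, 38.4% ± 0.375 with blank NPs and 45.7% ± 1.21 in CITED (SD, n = 4). Cxcr4 took 24.7% ± 0.685, 22.4% ± 0.988 and 16.9% ± 0.564. Ccr2 took 6.32% ± 0.135, 2.63% ± 0.192 and 1.77% ± 0.0701. Cxcr2 took 26.8% ± 0.712, 29.9% ± 0.444 and 29.6% ± 1.34. The shares of Ccr1 and Cxcr4 did not overlap between MDSC and CITED, nor between MDSC-NP-Blk and CITED. Shares within a library do not depend on library factors, and they sum to a whole, so that a rise of Ccr1 lowers the share of the others.

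Ccr1, Ccr3 and Ccr2 lie in 1 receptor cluster on chromosome 9 (GRCm39): Ccr1 at chr9:123762161-123768734 (−), Ccr3 at chr9:123822009-123831726 (+) and Ccr2 at chr9:123901982-123913594 (+). Ccr1 and Ccr2, 133248 bases apart, changed in opposite directions in all 3 comparisons, and Ccr3 between them passed in none.

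**Figure D4:**
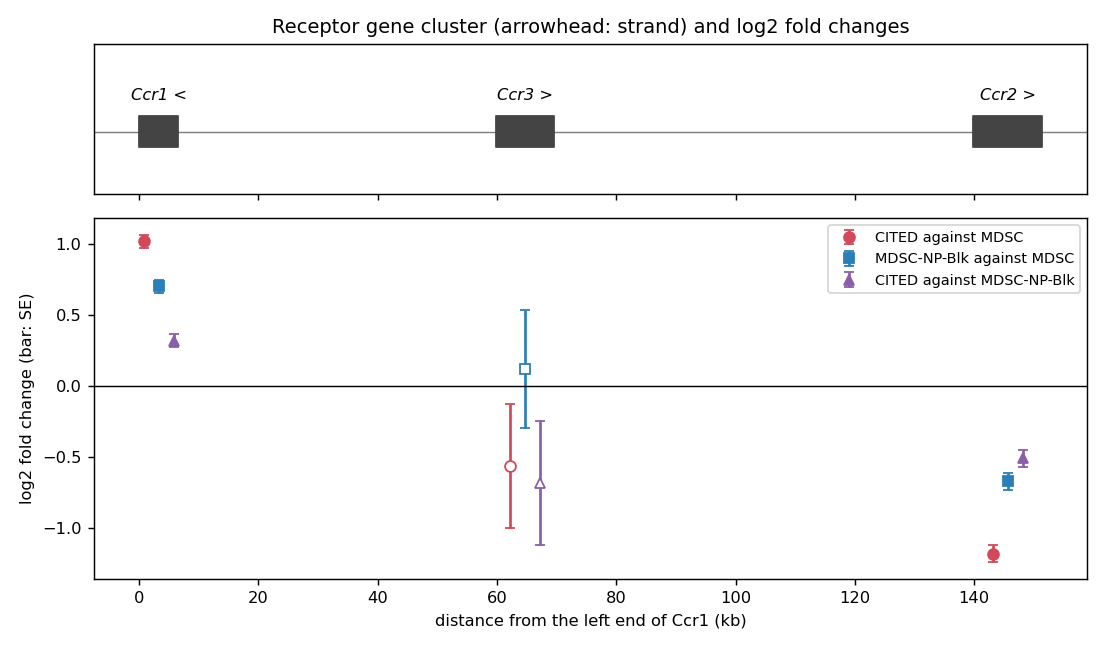
Ccr1, Ccr3 and Ccr2 on chromosome 9 (upper panel, arrowheads for strand) and their log2 fold changes (lower panel, y axis) by distance from the left end of Ccr1 (x axis, kb), with standard errors as bars, filled symbols for an adjusted p below 0.05. Ccr1 lies above 0 and Ccr2 below 0 in each comparison, at 1.02 and −1.18 in CITED against MDSC.

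Ccr1 and Ccr3 share a coding run of 47 bases, at chr9:123763648-123763694 (−) and chr9:123829513-123829559 (+), and fewer than 1% of the 31-base words of each occur in other genes, against 4.49% for Ccr2. The run is printed as the longest stretch the canonical transcripts of these genes share. The reads of the study were longer than this run, so a full-length read across it also holds bases outside it. The shares of words do not give a share of reads that cannot be assigned.
Ccr1 and Ccr3: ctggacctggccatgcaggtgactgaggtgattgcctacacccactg

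Other members had neighbors of their own. Csrnp1, beside Cx3cr1, rose by 0.94 in CITED and 1.01 with blank NPs, relative to MDSC (adjusted p = 5.5e-14 and 1.8e-14). Rufy4, beside Cxcr2, rose by 1.32 and 1.35 (adjusted p = 1.7e-12 and 1.9e-12). Ltf, the lactoferrin gene beside Ccrl2, differed by −0.19 in CITED (adjusted p = 3.6e-04).

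The ligands of these receptors were read in the same libraries. Of 21 ligand genes listed, 18 were tested: 12 rose and 4 fell in CITED against MDSC, with a median of 1.51 on the log2 scale against −0.05 over all genes. In MDSC-NP-Blk against MDSC, 12 rose and 3 fell, and in CITED against MDSC-NP-Blk 11 rose and 0 fell. Of all tested genes, 22.2% rose and 22.2% fell in CITED against MDSC. The shares were 19.9% and 18.6% in MDSC-NP-Blk against MDSC, and 10.5% and 11.4% between the groups with NPs. The ligand list was written with earlier results of these data known.

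Among ligands read by CCR1, Ccl3 rose by 1.65 in CITED and 1.32 with blank NPs, both against MDSC, Ccl5 by 3.01 and 1.85, Ccl6 by 1.25 and 0.58, and Ccl9 by 1.37 and 0.54, with adjusted p-values of at most 1.8e-11. Among those of CXCR2, Cxcl2 rose by 1.66 and 1.29, Cxcl3 by 3.22 and 2.17, Cxcl5 by 3.96 and 2.41, and Ppbp by 1.22 and 0.43, with adjusted p-values of at most 1.7e-05. Cxcl1, with 1 to 3 counts in each MDSC library, had 19 to 52 with blank NPs and 35 to 54 in CITED. For Ccl2 and Ccl7, read by CCR2, the direction against MDSC was the opposite. Ccl2 fell by 5.18 in CITED (adjusted p = 9.0e-24) and changed by −6.21 in MDSC-NP-Blk (adjusted p = 4.1e-24), and Ccl7 had 58 to 90 counts in each MDSC library and 0 to 5 with NPs. Between the groups with NPs, Ccl2 was higher in CITED by 1.03 (adjusted p = 0.0035), at low counts and with overlapping libraries. Ccr2 differed there by −0.51. Cx3cl1, the ligand of CX3CR1, fell by 0.71 in CITED (adjusted p = 0.014), a call lost without CITED replicate 1 (−0.56, adjusted p = 0.061). Ccl24, an eotaxin read by CCR3, rose by 1.06 (adjusted p = 3.1e-07).

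**Figure D5:**
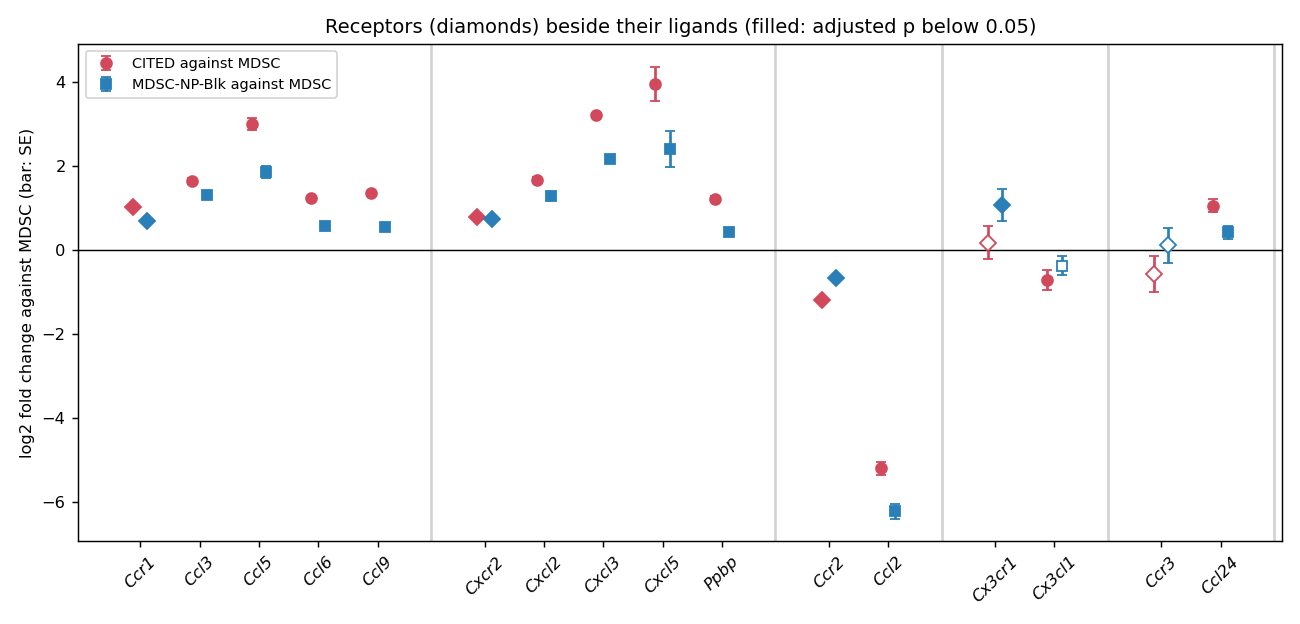
Log2 fold changes against MDSC (y axis) of 5 receptors (diamonds) and of ligands that each reads (x axis, grouped by receptor), for CITED and MDSC-NP-Blk, with standard errors as bars, filled symbols for an adjusted p below 0.05. Ccr1 and Cxcr2 stand beside ligands that also rose, and Ccr2 beside Ccl2, at −5.18 in CITED.

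Of 16 other chemokine receptors, 15 were tested, and 2 rose and 0 fell in CITED against MDSC. Of all tested genes, 22.2% rose and 22.2% fell there. In MDSC-NP-Blk against MDSC, 4 of the 15 rose and 1 fell, against 19.9% and 18.6% of all genes. A mean normalized count over 50 was reached by only 3 of the 15, so most were sparse. Ackr3, an atypical receptor that scavenges CXCL12, went from 26.8 normalized counts in MDSC to 85.5 with blank NPs and 73.6 in CITED, up by 1.66 and 1.45 (adjusted p = 2.6e-06 and 1.8e-05). Cxcr1 went from 19.6 to 51.0 and 37.1, up by 1.35 (adjusted p = 0.0020) and 0.91 (adjusted p = 0.036). The Cxcr1 call in CITED was not stable: it was lost without TMM factors (0.64, adjusted p = 0.14), after the length correction (0.68, adjusted p = 0.12), in a fit of the 8 libraries compared (0.91, adjusted p = 0.053), and without MDSC replicate 3 (0.92, adjusted p = 0.056), MDSC replicate 4 (0.72, adjusted p = 0.12), CITED replicate 3 (0.71, adjusted p = 0.15) or CITED replicate 4 (0.87, adjusted p = 0.077). Ccr4 held 39.1, 68.3 and 51.9 and rose in MDSC-NP-Blk by 0.81 (adjusted p = 0.013), a call lost without MDSC replicate 3 or MDSC-NP-Blk replicate 3.

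Of 12 receptors for other attractants that were tested, 9 rose and 0 fell in CITED against MDSC. Of all tested genes, 22.2% rose and 22.2% fell. A mean normalized count over 50 was reached by 10 of the 12, and 67.9% of genes over that limit passed in either direction. Without TMM factors 6 of the 12 rose and 1 fell, C3ar1, a receptor of complement C3a (−0.20, adjusted p = 0.0059). Fpr1 and Fpr2, receptors for formylated peptides, rose by 1.16 and 1.15, and C5ar1, a receptor of complement C5a, by 1.07 (adjusted p of at most 6.4e-15). In MDSC-NP-Blk they rose by 0.66, 0.67 and 0.83, and CITED exceeded MDSC-NP-Blk by 0.50, 0.48 and 0.24, each with an adjusted p of at most 0.0011. Cmklr1, the chemerin receptor that signals, rose in CITED by 0.67 (adjusted p = 3.9e-11) and differed by 0.11 in MDSC-NP-Blk (adjusted p = 0.17). S1pr4, a sphingosine-1-phosphate receptor, was lower in CITED than in MDSC-NP-Blk by −0.33 (adjusted p = 2.3e-04).

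Downstream of the receptors, 10 of 22 signalling genes rose and 7 fell in CITED against MDSC, and 6 rose and 11 fell without TMM factors. All 22 had a mean normalized count over 50, where 67.9% of genes passed in either direction. The G protein subunit Gnb2 rose by 0.60 and the GTPase Rac2 by 0.53. The Rac exchange factor Arhgef6 fell by 1.15 and Plcb2, a phospholipase driven by G proteins, fell by 0.54. Nup85, a nucleoporin that also binds CCR2, changed by −0.96 in CITED and by −0.79 with blank NPs, both relative to MDSC (adjusted p = 2.0e-11 and 2.0e-09), the same direction as Ccr2. Between the groups with NPs, Nup85 showed no detectable difference (−0.17, adjusted p = 0.21), whereas Ccr2 differed by −0.51 (adjusted p = 4.1e-08).

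Of 14 genes that switch receptors off, 8 rose and 3 fell in CITED against MDSC, and 6 rose and 5 fell without TMM factors. All 14 had a mean normalized count over 50, where 67.9% of genes passed in either direction. Rgs1, which speeds the shutdown of inhibitory G proteins, rose by 2.03 in CITED and 1.54 in MDSC-NP-Blk (adjusted p = 4.5e-15 and 1.1e-11). Arrb2, an arrestin, rose by 0.90 and 0.68 (adjusted p = 9.3e-18 and 3.7e-14). Receptor kinases diverged: Grk5 rose by 0.80 in CITED whereas Grk3 fell by 1.13 (adjusted p = 8.7e-14 and 2.6e-10).

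Neutrophil markers did not share 1 direction in CITED. Of 9, 5 rose and 4 fell in CITED against MDSC, and 8 rose and 0 fell in MDSC-NP-Blk against MDSC. Without TMM factors these counts were 4 and 4 in CITED and 5 and 2 in MDSC-NP-Blk. Mmp8, a neutrophil collagenase, rose by 1.47 in CITED (adjusted p = 2.4e-25) and Camp, a granule peptide made at an earlier stage, fell by 1.21 (adjusted p = 1.1e-18). Their summed level was 14774 to 15663 CPM in MDSC, 22135 to 22514 with blank NPs and 16929 to 18351 in CITED. The part of a shift in cell composition in the receptor values was not tested.

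The genes whose log2 CPM followed each receptor most closely across the 12 libraries were, by Pearson correlation over 10554 genes, Clec4d for Ccr1 (r = 0.997), Pcna for Ccr2 (r = 0.994), Rnf19b for Cxcr2 (r = 0.997), Olr1 for Ccrl2 (r = 0.992), Cd177 for Cxcr4 (r = 0.980) and Traf1 for Ccr7 (r = 0.926). Pcna encodes the sliding clamp of DNA replication, Clec4d a myeloid lectin and Cd177 a neutrophil surface protein. The points share 3 groups and their depth, so these values describe the order of groups.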

How the data were processed

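Poly(A) RNA of 12 mouse libraries, 4 per group, was measured by bulk RNA-seq. The authors deposited raw counts, whole numbers for each gene symbol, obtained from Salmon 1.4.0, tximport and R 4.3.2 from GENCODE transcripts of GRCm39, with no normalization or filter. Groups and replicate numbers came from the sample titles. The receptors and gene lists were chosen with earlier results of these data known.

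The 17676 symbols with at least 2 counts in total were fitted in R 4.3.3 with edgeR 4.0.16 (TMM, glmQLFit and glmQLFTest, all 12 libraries, group as the only term), with Benjamini-Hochberg adjustment over all genes. The biological coefficient of variation was 9.03%. The titles call the replicates biological without saying whether they came from separate animals, so p-values measure the spread between these libraries. Depth was 20604809 to 37855478 counts, and 3 counts were taken as the floor, which covers counting error only. Levels per kilobase used the canonical transcript of the GENCODE release used here, which may differ from that of the authors. CCR2 and CX3CR1 were also stained as surface proteins in the study, and those measurements were not analysed here. The RNA values of Ccr2 and Cx3cr1 therefore do not give the amount or direction of surface protein.

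Named genes were the 8 receptors, up to 3 genes per list, direction and comparison with the lowest p, other receptors with a mean normalized count over 10, ligands, the most similar genes and the nearest expressed neighbors, of which the text gives a part. The genes F13a1, Itgam, Ly6c2, Ly6g, Epx and Prg2 were named as markers. Alternatives were DESeq2 1.42.0, other scalings and filters, the 8 libraries of a comparison, a replicate block, a length correction by loess (span 0.5), other transcript lengths, and leaving out each library; the shortest Ccr2 transcript, and merged exons for levels per kilobase, were chosen after seeing the data. The steps were tested on simulated data. Figures used matplotlib 3.10.9. Some genes are not reported here.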

Additional observations from a re-analysis of the deposited data

Results flagged for a closer look

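Ccr3 in CITED replicate 1 stood apart, at 52.5 normalized counts against 9.97 to 14.6 in the other 3 CITED libraries, by Dixon's test of the gap to the nearest library. It was the only 1 of the 24 receptor and group combinations to do so. The eosinophil peroxidase Epx did not stand apart there, although Prg2 did in the same library, at 6175 against 5893 to 5900.

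Over 3 groups of each receptor and of 44 genes named beside them, the test marked 9 libraries in all of 156 groups, and chance marks about 1 in 20. In MDSC replicate 2, Ccl6 was 111601 (others 100812 to 102522), Ccl9 was 22852 (others 21477 to 21623) and Cxcl2 was 2987 (others 2374 to 2463) normalized counts. In MDSC replicate 3, S1pr4 was 1392 (others 1206 to 1224). In MDSC-NP-Blk, Ccr4 was 89.4 in replicate 3 (others 58.5 to 63.6) and Csrnp1 was 1607 in replicate 1 (others 1923 to 1955). In CITED replicate 3, Rgs18 was 617 (others 599 to 600.4).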

How the results depend on the processing

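The numbers of receptors changed stayed within 1.5 times their values under all 21 alternatives of each comparison, at 4 to 6 in CITED against MDSC, 5 to 7 in MDSC-NP-Blk against MDSC and 3 to 4 between the groups with NPs. The numbers past 2-fold as well were less stable. In CITED against MDSC, 1 receptor remained without TMM factors and 0 after the length correction, and 1 to 2 when 1 library was left out. In MDSC-NP-Blk against MDSC, 0 remained without TMM factors and 0 to 1 when 1 library was left out, and between the groups with NPs 0 to 1. A replicate block left 5, 7 and 3 receptors changed and 2, 1 and 0 past 2-fold, and changed the call of no receptor. Same-numbered libraries deviated together only weakly (correlations −0.04 to 0.07 in CITED against MDSC, −0.06 to 0.03 in MDSC-NP-Blk against MDSC and −0.06 to 0.14 between the groups with NPs), so the numbers were not taken as pairs.

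Without TMM factors these log2 fold changes reversed in CITED against MDSC: Ccr7 (−0.018), Cxcr4 (−0.167), Cx3cr1 (−0.0906), C3ar1 (−0.203) and S1pr4 (−0.0869). In MDSC-NP-Blk against MDSC they were Ccr3 (−0.145), Cmklr1 (−0.150), Ltf (−0.0987) and Prg2 (−0.185), and between the groups with NPs Arpc2 (−0.00465). After the length correction, Cxcr4 in CITED against MDSC (−0.0682), Prg2 in MDSC-NP-Blk against MDSC (−0.188), and Ltb4r1 (−0.0102) and Arpc2 (−0.0170) between the groups with NPs reversed. Leaving out 1 library turned small values around: Cx3cr1 in CITED against MDSC ranged from −0.0165 to 0.400, Ccr3 in MDSC-NP-Blk against MDSC from −0.0804 to 0.292 and Rgs18 there from −0.103 to 0.0197. Between the groups with NPs, Ccrl2 ranged from −0.0811 to 0.00135, Ltb4r1 from −0.00431 to 0.0407, Rufy4 from −0.111 to 0.104 and Arpc2 from −0.0122 to 0.0212. The deviation of each library from the mean of all libraries was related to transcript length across genes, which are not independent replicates, with Spearman's rho of 0.218 to 0.347 in MDSC, −0.422 to 0.0919 with blank NPs and −0.341 to −0.187 in CITED. Beyond the construction of each alternative, the cause was not tested.

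With merged exon lengths, Ccr2 took 5.42%, 2.24% and 1.51% of the summed receptor level in MDSC, MDSC-NP-Blk and CITED, Cx3cr1 0.0449% in MDSC and Ccrl2 3.04% in CITED. Levels per kilobase were then 528, 332 and 233 for Ccr2, 4.39 for Cx3cr1 in MDSC and 470 for Ccrl2 in CITED. With the shortest complete Ccr2 transcript, Ccr2 took 14.6%, 6.39% and 4.35% (1574, 988 and 695 per kilobase), Ccr1 32.4% in MDSC and 36.9% in MDSC-NP-Blk, Cxcr2 24.5% and 28.7%, and in MDSC Ccr7 took 3.36%, Cxcr4 22.5% and Ccrl2 2.55%. Depth limits mainly Cx3cr1 and Ccr3, at 13 to 60 and 9 to 68 raw counts a library.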
